A study of Mus musculus with 8 samples.

Results

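The 39 genes described here encode chromatin modifiers and remodellers, together with the described partners of the DNA demethylase TET1. They were chosen by gene symbol from the deposited count table, which lists 55471 gene entries, and all 39 were found and were among the 22153 genes with enough counts to test. They fall into 8 groups by complex or activity: 5 genes of Polycomb repressive complex PRC2, 4 MLL histone methyltransferases, 7 other histone H3 methyltransferases, 6 histone demethylases, 5 CHD remodellers, 4 SWI/SNF subunits, 6 genes of histone acetylation and deacetylation, and the TET1 partners Sin3a and Ogt.

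The study sequenced total RNA of 2 populations sorted by flow cytometry from the femurs of mouse neonates at day 3 to 5. Skeletal stem cells (SSC) give rise to cartilage, bone and stroma, and bone cartilage stromal progenitors (BCSP) lie downstream of them. The 4 groups were Tet1 KO SSC, WT SSC, Tet1 KO BCSP and WT BCSP, with 2 libraries each, numbered round 1 and round 2 in the labels. The strain label B6;129S4-Tet1tm1.1Jae/J, which names the Tet1 allele, stands on all 8 samples, WT included, so KO and WT are told apart by the genotype label alone. Zygosity, sex, the number of pups behind a library and the part of Tet1 that the allele removes are not given in the sources used here. No label says that the libraries of a group came from separate animals, so p-values measure only the spread between these samples, which may be technical.

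TET1 oxidises methylated cytosine in DNA and binds promoters rich in CG pairs. In mouse embryonic stem cells it shares many promoters with PRC2, which places the repressive H3K27 methyl mark on histone H3. It also binds the SIN3A corepressor, which carries the histone deacetylases HDAC1 and HDAC2, and it binds the sugar transferase OGT. MLL enzymes, acetyltransferases and the SWI/SNF remodeller act on the opposite side, at active promoters and enhancers. In the growing skeleton, PRC2, the demethylase KDM6B and histone deacetylases are known to act in cartilage maturation and bone formation. Transcript levels, as measured here, do not report the activity of these enzymes.

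Promoters of these genes are of the CG-rich kind. RefSeq promoter windows of 300 bases, running from 250 before to 50 after the annotated start in build GRCm38.p6, could be matched for 29 of the 39 genes. For genes with several such windows, the first listed was used. These windows held a median of 28 CG pairs (13 to 56), against 23 in 6146 tested genes of 10 CPM (counts scaled to library size by TMM) or more and 7 in all 27025 genes of the table. The motif GGGCGG, searched on both strands as GGGCGG or CCGCCC and itself containing a CG pair, was present in 79.3% of the 29 windows, 70.8% of those of the tested genes and 35.9% of all. Windows with at least 20 CG pairs made up 72.4% of the 29, 63.7% of the tested genes and 26.8% of all, so most of the difference from the whole genome was shared with other genes that these cells transcribe. The other 10 genes are Kmt2b, Nsd1, Kdm5a, Kdm6b, Chd1, Chd2, Chd7, Arid2, Hdac1 and Hdac3.

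The 4 windows printed here are read 5′ to 3′ on the strand of the gene, with every CG pair in capitals. They hold 20 to 49 CG pairs and so do not span the 13 to 56 of the 29 genes. They are Dot1l (chr10:80754953-80755252, plus strand, 49 CG pairs) and Kmt2a (chr9:44881240-44881539, minus strand, 36 CG pairs), which code for enzymes of the active side, Hdac2 (chr10:36974294-36974593, plus strand, 36 CG pairs), whose KO libraries all lay below the WT libraries, and Ogt (chrX:101639801-101640100, plus strand, 20 CG pairs), the TET partner on the X chromosome. A second listed window of Ogt holds 14 CG pairs.
Dot1l: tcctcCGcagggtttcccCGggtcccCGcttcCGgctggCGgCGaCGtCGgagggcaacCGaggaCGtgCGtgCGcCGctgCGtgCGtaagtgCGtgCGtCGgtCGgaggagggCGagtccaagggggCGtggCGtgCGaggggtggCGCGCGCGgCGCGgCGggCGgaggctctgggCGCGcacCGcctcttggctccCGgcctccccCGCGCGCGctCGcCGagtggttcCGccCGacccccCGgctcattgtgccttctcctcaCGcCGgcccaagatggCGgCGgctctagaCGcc
Kmt2a: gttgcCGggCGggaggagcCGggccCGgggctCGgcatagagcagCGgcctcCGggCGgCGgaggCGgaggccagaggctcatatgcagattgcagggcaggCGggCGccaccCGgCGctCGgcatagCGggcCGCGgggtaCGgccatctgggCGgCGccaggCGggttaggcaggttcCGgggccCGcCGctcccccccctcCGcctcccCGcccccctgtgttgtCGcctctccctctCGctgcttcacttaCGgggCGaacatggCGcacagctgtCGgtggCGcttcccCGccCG
Hdac2: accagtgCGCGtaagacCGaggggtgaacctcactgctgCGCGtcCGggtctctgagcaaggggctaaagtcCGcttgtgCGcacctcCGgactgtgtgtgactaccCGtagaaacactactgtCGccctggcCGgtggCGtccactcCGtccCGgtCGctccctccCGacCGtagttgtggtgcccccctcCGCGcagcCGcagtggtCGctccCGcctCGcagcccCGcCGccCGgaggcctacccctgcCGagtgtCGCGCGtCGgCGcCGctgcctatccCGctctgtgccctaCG
Ogt: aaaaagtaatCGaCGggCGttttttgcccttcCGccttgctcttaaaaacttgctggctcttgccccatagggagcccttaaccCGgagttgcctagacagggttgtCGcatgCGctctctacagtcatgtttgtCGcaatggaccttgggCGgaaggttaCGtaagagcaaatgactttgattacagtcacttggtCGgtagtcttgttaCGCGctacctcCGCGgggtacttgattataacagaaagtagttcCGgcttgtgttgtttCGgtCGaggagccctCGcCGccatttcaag

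Library totals ran from 104782544 to 168004119 counts, and the lowest count of any of the 39 genes was 733, for Suv39h1. Eng, which encodes CD105, the antigen that usually separates BCSP from SSC, stood at 2.53 to 2.55 CPM in KO SSC, against 2.70 to 3.89 CPM in WT SSC, and at 25.7 to 43.9 CPM in KO BCSP, against 47.95 to 50.5 CPM in WT BCSP. The summed level of 4 genes whose products are usually absent from both populations (Ptprc, Tek, Thy1 and Enpep) was 1.65 to 4.26 CPM. The summed level of 12 blood cell genes was 183 CPM in WT SSC library 1 and 5.16 to 45.6 CPM in the other 7 libraries. Tet1 had 7.26 and 11.8 CPM in KO SSC, against 15.6 and 19.6 CPM in WT SSC, and 10.8 and 11.96 CPM in KO BCSP, against 21.6 and 10.98 CPM in WT BCSP. Its KO libraries lay below the WT libraries in SSC and overlapped with them in BCSP, and its log2 fold change over both cell types was -0.70 ± 0.23 (edgeR adjusted p = 0.608). Without a low-count filter edgeR called it (adjusted p = 0.0483), as it did with an exon-length offset and the round as a block (adjusted p = 0.0268). Counts over the whole gene need not show a deleted part.

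WT BCSP library 2 stood apart from the other libraries for these genes. It was the lowest of the 8 libraries for 25 of the 39 genes (64.1%), against 21.4% of the 7658 tested genes of 10 CPM or more. Taken as the median distance of the 39 genes from their mean log2 CPM, it lay at -0.42, while the other 7 libraries lay between -0.12 and 0.12. KO BCSP library 2, its counterpart of the same round, was the highest for 16 genes (41.0%), against 16.3% of those tested genes. It was the lowest for 6 genes (15.4%), against 31% of those tested genes. In WT BCSP library 2 the deviation of a gene fell with its exon length (Spearman -0.511 across tested genes, which are not independent replicates), in KO BCSP library 2 it grew with it (0.362), and in the other 6 libraries the coefficient lay between -0.243 and 0.23. The main BCSP results are therefore also given without them.

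**Figure D1:**
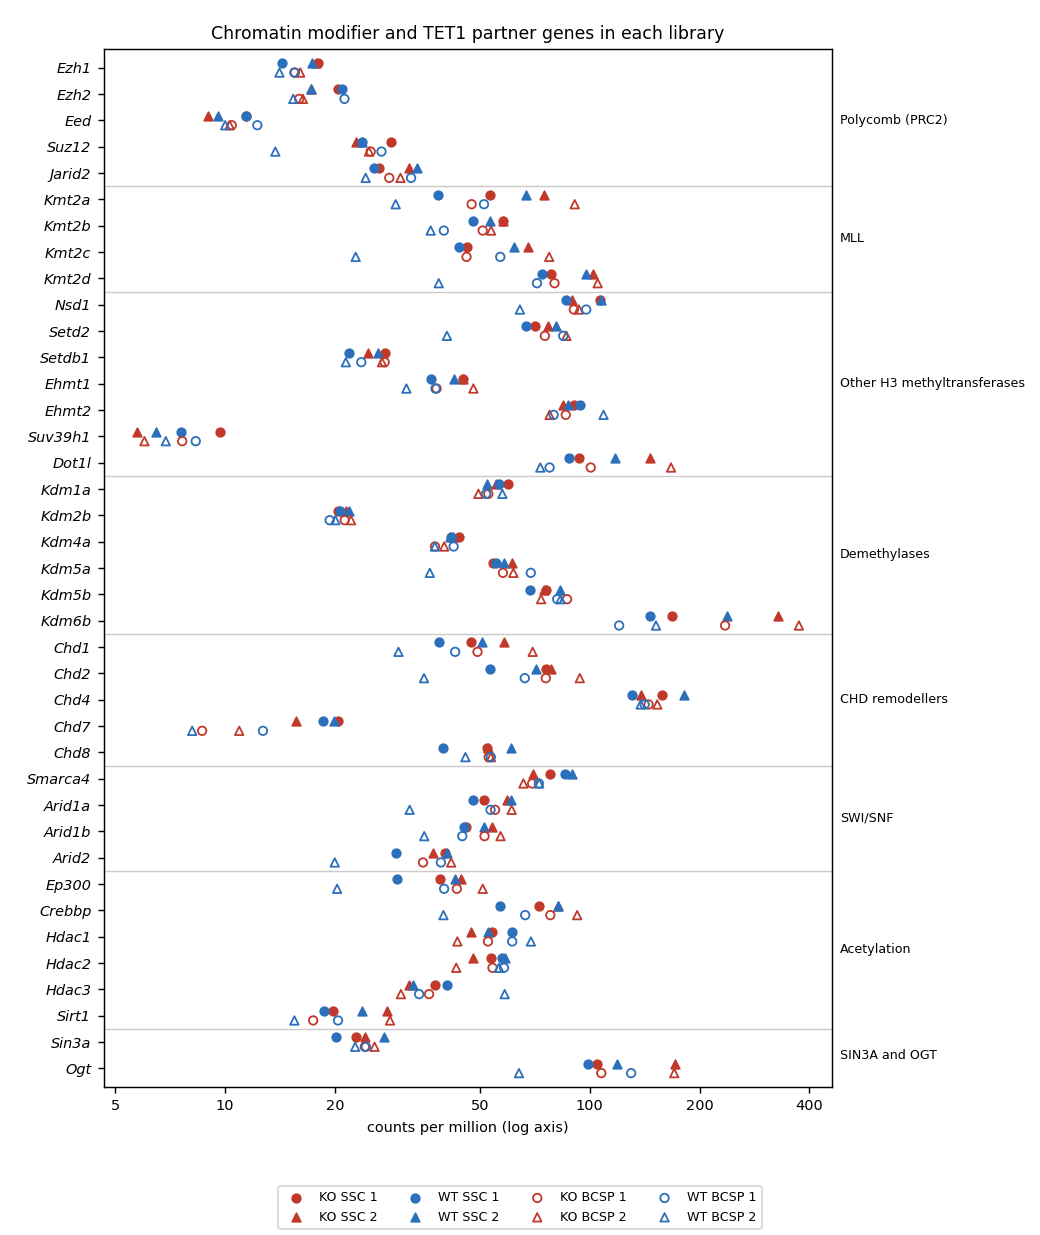
Each row is 1 of the 39 genes and each mark 1 library, on a log axis of CPM, with SSC filled and BCSP open, KO red and WT blue, round 1 as circles and round 2 as triangles. The open blue triangle (WT BCSP library 2) lies to the far left of its row for 25 genes, among them Kmt2a, Kmt2c and Ep300, and levels run from below 10 CPM for Suv39h1 to 375 CPM for Kdm6b.

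Per kilobase of exon, Kdm6b had the highest mean level of the 39 genes, at 31.7 CPM per kb (17.3 to 53.9 over the 8 libraries). It was followed by Chd4 at 18.5, Ehmt2 at 16.1, Hdac1 at 16.02 and Ogt at 15.02 CPM per kb. Chd7 was lowest at 1.04 CPM per kb, below Suv39h1 at 1.38 and Kdm2b at 1.92 CPM per kb. All 38 pairs of neighbours in this order overlapped in their ranges over the libraries, so the order holds for distant ranks and not for adjacent ones. The highest library was under 2 times the lowest for 25 of the 39 genes (64.1%), against 78.3% of 115 other genes of the same complexes and 73.5% of the 7658 tested genes of 10 CPM or more. Once both BCSP libraries of round 2 were set aside, it was so for 37 of the 39. The same held for 109 of the 115 other genes and 7044 of the 7658 tested genes. With fewer libraries this ratio can only fall or stay.

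In Tet1 KO cells none of the 39 genes passed the test for a change against WT. Over both cell types, edgeR called 0 of 39 (adjusted p under 0.05), where 0.0135% of all tested genes were called, namely Trf, Cd59a and Ulbp1. In SSC and in BCSP it also called 0 of 39, beside 0.00451% of all genes in either comparison. The difference of the KO effect between the cell types likewise gave 0 of 39, with 0% of all genes. DESeq2 and limma-voom called 0 of 39 in each of these 4 comparisons. Of 115 other genes of the same complexes, edgeR called 0 in each of them and 0 between cell types or rounds, in either direction. In bulk libraries such as these, fewer cells of a type and less RNA per cell cannot be told apart.

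At an unadjusted p under 0.05 by edgeR, 5 of 39 genes (12.8%) were counted over both cell types, all higher in KO (Kdm6b, Chd2, Chd1, Dot1l and Kmt2b). Of all tested genes 7.91% were counted, and of those of 10 CPM or more 11.1%. In BCSP there were 7 (17.9%), again all higher in KO (Kdm6b, Dot1l, Chd1, Chd2, Kmt2d, Crebbp and Kmt2b), beside 6.19% of all genes and 7.16% of those of 10 CPM or more. Both counts rested on single libraries and fell without KO BCSP library 2 or WT BCSP library 2. Over both cell types the count also fell without WT SSC library 1 or KO SSC library 2. It rose most without WT SSC library 2 or KO SSC library 1, and the count in BCSP without WT BCSP library 1. Neither count held without both BCSP libraries of round 2. Such fits leave 1 library in a group, so only the direction of these changes is given. With all libraries, 0 genes were counted in SSC, beside 1.2% of all genes, and 0 for the difference between cell types, beside 1.27%. The median log2 fold change of the 39 genes was 0.13 over both cell types (28 above 0), 0.060 in SSC (25 above 0) and 0.18 in BCSP (27 above 0). Over the 7658 tested genes of 10 CPM or more the median was -0.047 over both cell types, -0.0014 in SSC and -0.093 in BCSP. Without WT BCSP library 2, the median of the 39 genes was 0.041 over both cell types and 0.036 in BCSP. Without both BCSP libraries of round 2 it was 0.033 over both cell types and -0.0069 in BCSP. The median in SSC was -0.0445, with 16 genes above 0, without WT SSC library 1, 0.0039 without KO SSC library 2 and 0.20 without WT SSC library 2.

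Set side by side within each round, KO lay above WT for 31 of 39 genes in SSC of round 1 (median difference 0.11 on the log2 scale). In SSC of round 2 it did so for 18 (-0.021). The round 1 pair holds WT SSC library 1, with its higher blood cell sum and a coefficient of deviation with exon length of -0.243. The part of either in these values was not tested. In BCSP, KO lay above WT for 19 genes in round 1 (-0.010) and for 31 in round 2 (0.54), the pair that holds WT BCSP library 2. Of the 7658 tested genes of 10 CPM or more, KO lay above WT for 54.6% in SSC of round 1, 41.9% in SSC of round 2, 50.6% in BCSP of round 1 and 40.8% in BCSP of round 2. KO was higher for 10 of 39 genes (25.6%) in all 4 pairs: Ezh1, Kmt2b, Kmt2d, Ehmt1, Dot1l, Kdm6b, Chd1, Chd2, Arid1b and Ep300. Among tested genes of 10 CPM or more, 11.6% did so. Smarca4, Hdac1 and Hdac2 were lower in KO in all 4 pairs (7.69% of the 39, against 14.8% of those genes).

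**Figure D2:**
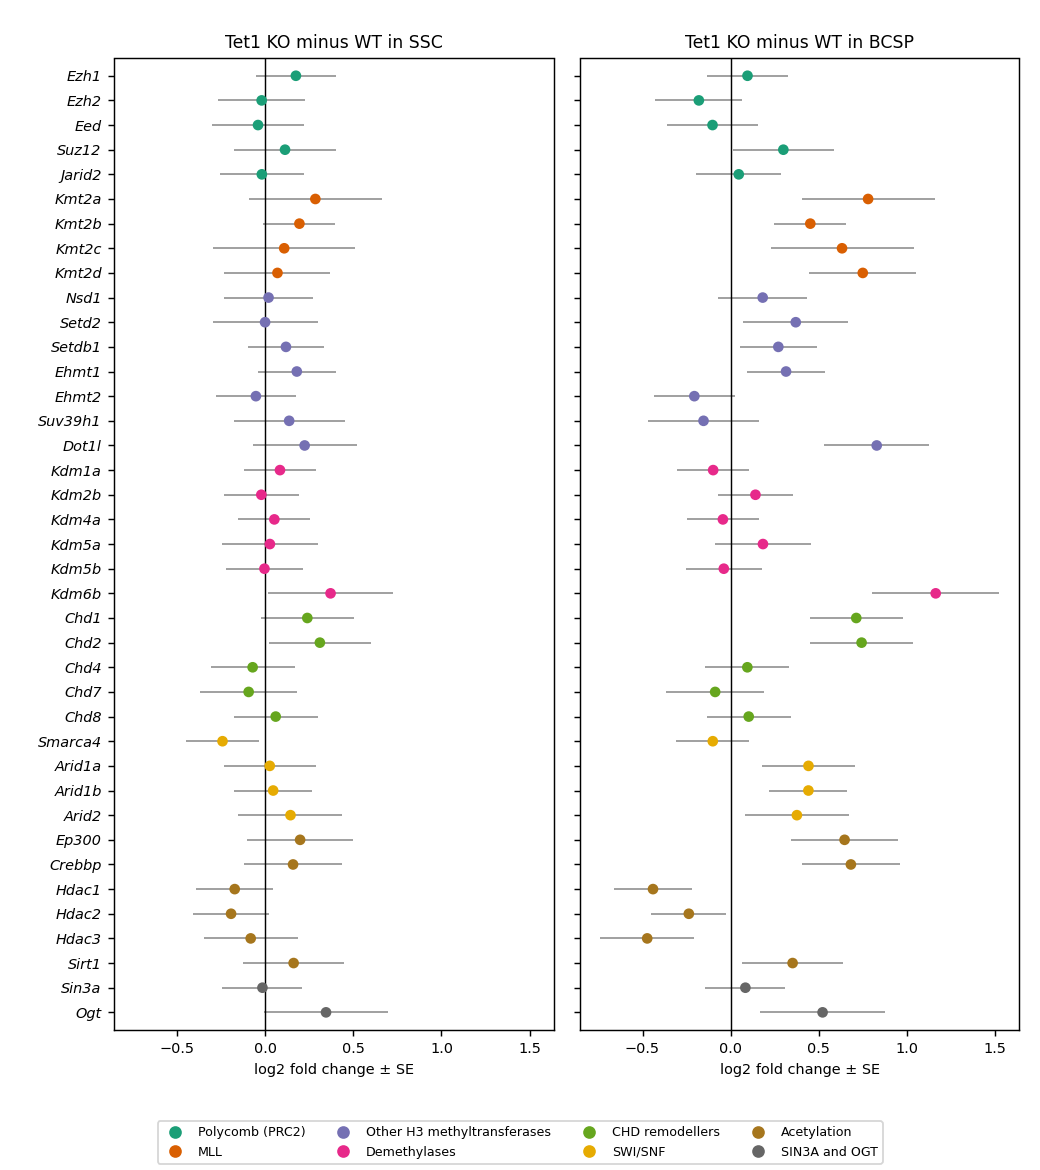
Points are the log2 fold change of Tet1 KO over WT for each of the 39 genes in SSC (left) and BCSP (right), coloured by complex, with bars for the standard error derived from the edgeR test. In SSC all values lie between -0.24 and 0.37, and in BCSP between -0.47 (Hdac3) and 1.16 (Kdm6b).

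Of the 6 demethylases, Kdm6b, which removes the methyl marks that PRC2 writes on histone H3, had the largest KO-over-WT values of the 39 genes (chr11:69398508-69413675, minus strand, mm10). It had 168 and 329 CPM in KO SSC, against 146 and 238 CPM in WT SSC, and the groups overlapped there. It had 235 and 375 CPM in KO BCSP, against 120.4 and 152 CPM in WT BCSP, with both KO libraries above both WT libraries. The log2 fold change was 1.16 ± 0.36 in BCSP (edgeR adjusted p = 0.686), 0.37 ± 0.36 in SSC (edgeR adjusted p = 1) and 0.77 ± 0.27 over both (edgeR adjusted p = 0.613). KO was higher in 4 of 4 within-round pairs, and the value over both cell types stayed between 0.55 and 1.01 under 17 alternative settings. In SSC it was -0.21 without KO SSC library 2 and 0.060 without WT SSC library 1, and in BCSP 1.34 without WT BCSP library 2 and 0.97 without both BCSP libraries of round 2. Without a filter on low counts, a setting in which the fitted gene-wise spread shrank fully to a common trend, edgeR called it over both cell types (adjusted p = 0.00766) and in BCSP (adjusted p = 0.0295). With an exon-length offset and the round as a block, edgeR did not call it, at adjusted p = 0.0701 over both cell types and 0.0549 in BCSP.

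Kdm6b also had the largest difference between rounds among the 39 genes, at 0.67 ± 0.18 for round 2 over round 1 (edgeR adjusted p = 0.0784). Round 2 was above round 1 within each of the 4 groups. Between the cell types it differed little, at 0.10 ± 0.27 for SSC over BCSP. Exons of an antisense gene, Kdm6bos, cover 4.11% of its exon bases on the opposite strand, and the strand setting of the counting is not given.

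The other demethylases varied less. Kdm1a (LSD1), which removes the H3K4 mark within corepressor complexes, ranged over 49.5 to 59.7 CPM in the 8 libraries. Kdm2b, which recruits a variant Polycomb complex to CG-rich promoters through a DNA-binding domain of the same class as that of TET1, had the narrowest range of the 39 genes, 19.4 to 22.2 CPM. Kdm4a, which acts on the repressive H3K9 mark and on H3K36, ranged over 37.6 to 43.9 CPM, and Kdm5a, an eraser of the H3K4 promoter mark, over 36.4 to 68.9 CPM with WT BCSP library 2 lowest. Kdm5b, of the same family, had 75.9 and 75.03 CPM in KO SSC, against 68.4 and 82.9 CPM in WT SSC, and 86.7 and 73.5 CPM in KO BCSP, against 81.5 and 83.2 CPM in WT BCSP. Its log2 fold change was -0.0040 ± 0.22 in SSC and -0.039 ± 0.22 in BCSP, with overlapping groups in both.

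No PRC2 transcript passed the test between KO and WT. Ezh2, the main catalytic subunit of PRC2, had 20.4 and 17.2 CPM in KO SSC, against 20.95 and 17.2 CPM in WT SSC, and 15.97 and 16.4 CPM in KO BCSP, against 21.3 and 15.4 CPM in WT BCSP. The 2 genotypes overlapped in both cell types, and the log2 fold change over both was -0.10 ± 0.16 (edgeR adjusted p = 0.881). Its relative Ezh1, more common in non-dividing cells, ranged over 14.1 to 17.97 CPM with a log2 fold change of 0.13 ± 0.15. Of the core subunits, Eed ranged over 8.97 to 12.3 CPM with -0.072 ± 0.17, and Suz12 over 13.7 to 28.6 CPM with 0.21 ± 0.19. Jarid2, which helps to bring PRC2 to its targets, ranged over 24.3 to 33.6 CPM with 0.013 ± 0.16. None of the 5 genes was counted at an unadjusted p under 0.05 in any comparison between KO and WT, and their summed level was 95.2 to 105 CPM in KO libraries and 77.6 to 108 CPM in WT libraries. The summed level of 10 cell-cycle genes, with which Ezh2 often moves, was 264 to 446 CPM in KO libraries and 328 to 503 CPM in WT libraries, and its part in these values was not tested.

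MLL transcripts had the widest spread of the 8 groups over the libraries, measured as the group's median deviation. These very large enzymes methylate histone H3 at promoters (Kmt2a and Kmt2b) and enhancers (Kmt2c and Kmt2d). Kmt2a had 53.1 and 75.1 CPM in KO SSC, against 38.4 and 66.9 CPM in WT SSC, and 47.4 and 90.96 CPM in KO BCSP, against 51.3 and 29.4 CPM in WT BCSP. Round 2 was higher in 3 of the 4 groups, and WT BCSP library 2 was lowest of all. Kmt2b had 57.9 and 57.7 CPM in KO SSC, against 47.8 and 53.2 CPM in WT SSC, and 50.9 and 53.6 CPM in KO BCSP, against 39.8 and 36.6 CPM in WT BCSP, and both KO libraries lay above both WT libraries in each cell type. Its log2 fold change was 0.32 ± 0.13 over both cell types (edgeR adjusted p = 0.615) and 0.45 ± 0.20 in BCSP, and in BCSP it was 0.39 without WT BCSP library 2 and 0.36 without both BCSP libraries of round 2.

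For Kmt2c and Kmt2d the picture in BCSP turned on that library. Kmt2c had 45.9 and 77.4 CPM in KO BCSP, against 56.9 and 22.8 CPM in WT BCSP, and its log2 fold change there was 0.63 ± 0.41, or 0.12 without WT BCSP library 2 and -0.30 without both BCSP libraries of round 2. Kmt2d had 80.1 and 105 CPM in KO BCSP, against 71.7 and 38.6 CPM in WT BCSP, with 0.75 ± 0.30, or 0.37 and 0.16 under the same omissions. The median log2 fold change of the 4 MLL genes was 0.15 in SSC and 0.69 in BCSP. Of 13 other MLL complex genes, whose median was -0.0078 in SSC and -0.17 in BCSP, Setd1b, another H3K4 methyltransferase, had the lowest p over both cell types, at 0.48 ± 0.16 (edgeR adjusted p = 0.609).

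**Figure D3:**
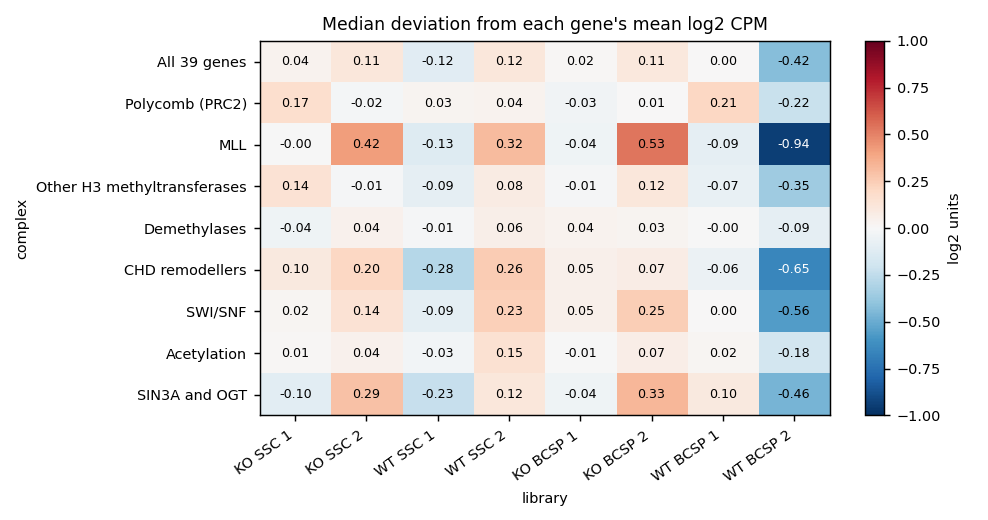
Each cell gives the median deviation, in log2 units, of the genes of a complex (rows) from their own mean log2 CPM in a library (columns). WT BCSP library 2 is at -0.94 for MLL genes and -0.65 for CHD remodellers but -0.087 for demethylases, and KO BCSP library 2 is at 0.53 for MLL genes.

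Among the other H3 methyltransferases, Dot1l, which methylates histone H3 within transcribed genes, had 93.4 and 146 CPM in KO SSC, against 87.7 and 117 CPM in WT SSC, and 101 and 167 CPM in KO BCSP, against 77.6 and 73.2 CPM in WT BCSP (chr10:80755206-80795461, plus strand, mm10; its CG-dense promoter is the first of the 4 shown). Both KO libraries were above both WT libraries in BCSP, and the groups overlapped in SSC. Its log2 fold change was 0.83 ± 0.30 in BCSP (edgeR adjusted p = 0.686), 0.79 without WT BCSP library 2 and 0.38 without both BCSP libraries of round 2. For round 2 over round 1 it was 0.44 ± 0.17, with round 2 higher in 3 of 4 groups.

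Nsd1 and Setd2 write the H3K36 mark. Nsd1 ranged over 64.4 to 107 CPM, with a log2 fold change over both cell types of 0.10 ± 0.16, and Setd2 over 40.6 to 86.3 CPM, with 0.18 ± 0.20. WT BCSP library 2 was lowest for both, and without it the values were -0.025 for Nsd1 and -0.027 for Setd2, on the other side of 0. Of the writers of the repressive H3K9 mark, Setdb1 ranged over 21.4 to 27.5 CPM at 0.19 ± 0.14, and Ehmt1 over 31.4 to 47.98 CPM at 0.25 ± 0.14. Ehmt2, the partner of Ehmt1 in 1 enzyme complex, ranged over 77.6 to 109 CPM at -0.13 ± 0.15, with WT BCSP library 2 highest, and stood at -0.016 without that library and 0.0023 without both BCSP libraries of round 2. Ehmt1 stood at 0.18 and 0.12 under the same omissions. Suv39h1, a further H3K9 writer, was the least abundant of the 39 genes by CPM, at 5.74 to 9.72, and its 4 round 2 libraries (5.74 to 6.88 CPM) lay below its 4 round 1 libraries (7.58 to 9.72 CPM). An opposite-strand gene covers 14.6% of the exon bases of Suv39h1.

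CHD remodellers slide or evict nucleosomes. Chd1, which binds the H3K4 mark at active promoters, had 47.3 and 58.2 CPM in KO SSC, against 38.6 and 50.7 CPM in WT SSC, and 49.2 and 69.8 CPM in KO BCSP, against 42.8 and 29.9 CPM in WT BCSP. KO was above WT in all 4 within-round pairs, and the log2 fold change was 0.48 ± 0.19 over both cell types (edgeR adjusted p = 0.615) and 0.71 ± 0.27 in BCSP (edgeR adjusted p = 0.686). Without WT BCSP library 2 the value in BCSP was 0.48, and without both BCSP libraries of round 2 it was 0.21.

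Chd2, its close relative, was the only one of the 39 genes whose 4 KO libraries all lay above the 4 WT libraries (chr7:73426638-73541830, minus strand, mm10). It had 76.04 and 78.1 CPM in KO SSC, against 53.2 and 71.05 CPM in WT SSC, and 75.8 and 93.9 CPM in KO BCSP, against 66.4 and 35.1 CPM in WT BCSP. The log2 fold change was 0.53 ± 0.20 over both cell types (edgeR adjusted p = 0.615), 0.31 ± 0.29 in SSC and 0.74 ± 0.29 in BCSP. Without WT BCSP library 2 it was 0.33 over both cell types and 0.36 in BCSP, and without both BCSP libraries of round 2 it was 0.27 over both and 0.19 in BCSP. Exons of 2 same-strand genes, 1810026B05Rik and Gm44686, cover 18.4% of its exon bases, so reads there may have been counted for either. Hdac2 was the only gene with all 4 KO libraries below all 4 WT libraries. Together these are 5.13% of the 39 genes, where 4.37% of all tested genes and 5.13% of those of 10 CPM or more did not overlap.

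Chd7, whose human gene is mutated in CHARGE syndrome, showed the clearest difference between the cell types. It ranged over 15.6 to 20.4 CPM in the 4 SSC libraries and 8.13 to 12.7 CPM in the 4 BCSP libraries, without overlap (chr4:8690406-8867659, plus strand, mm10). The log2 fold change for SSC over BCSP was 0.88 ± 0.18 (edgeR adjusted p = 0.385), and the 17 alternatives gave 0.77 to 1.02. DESeq2 called it (adjusted p = 0.00873), as did edgeR without a low-count filter (adjusted p = 0.0043) and with an exon-length offset and the round as a block (adjusted p = 0.0182). Its KO-over-WT log2 fold change was -0.094 ± 0.28 in SSC and -0.088 ± 0.28 in BCSP. Chd4, the motor of the NuRD corepressor, ranged over 130.4 to 181 CPM, with a KO-over-WT value of 0.012 ± 0.15 over both cell types. Chd8, whose human gene is linked to autism, ranged over 39.7 to 60.9 CPM, with 0.081 ± 0.15. Of 10 other CHD and NuRD genes the median was -0.10 over both cell types, and Chd3 had the lowest p of all 115 other genes between the cell types, at 0.31 ± 0.14 for SSC over BCSP (edgeR adjusted p = 1).

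Between the cell types as a whole, edgeR called 0 of 39 genes, where it called 0.00451% of all tested genes, namely Eng. Limma-voom called 0 of 39, and DESeq2 called Chd7 alone. The DESeq2 share over all genes is not given here, so the edgeR share is no background for that call. At an unadjusted p under 0.05 Chd7 was the only one counted, beside 3.71% of all genes, and it was the only one without overlap, beside 2.53%. The median log2 fold change for SSC over BCSP was 0.079, with 33 of 39 above 0. Next after Chd7 on the SSC side stood Kmt2b at 0.27 ± 0.13 and Smarca4 at 0.20 ± 0.13. On the BCSP side, Hdac3 stood at -0.14 ± 0.18, Kdm5b at -0.10 ± 0.14 and Hdac1 at -0.057 ± 0.14, and without WT BCSP library 2 Hdac3 stood at 0.080 and Hdac1 at 0.0052. Leaving out WT SSC library 2 brought the median to 0.0040, and leaving out WT BCSP library 1 brought it to 0.17.

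**Figure D4:**
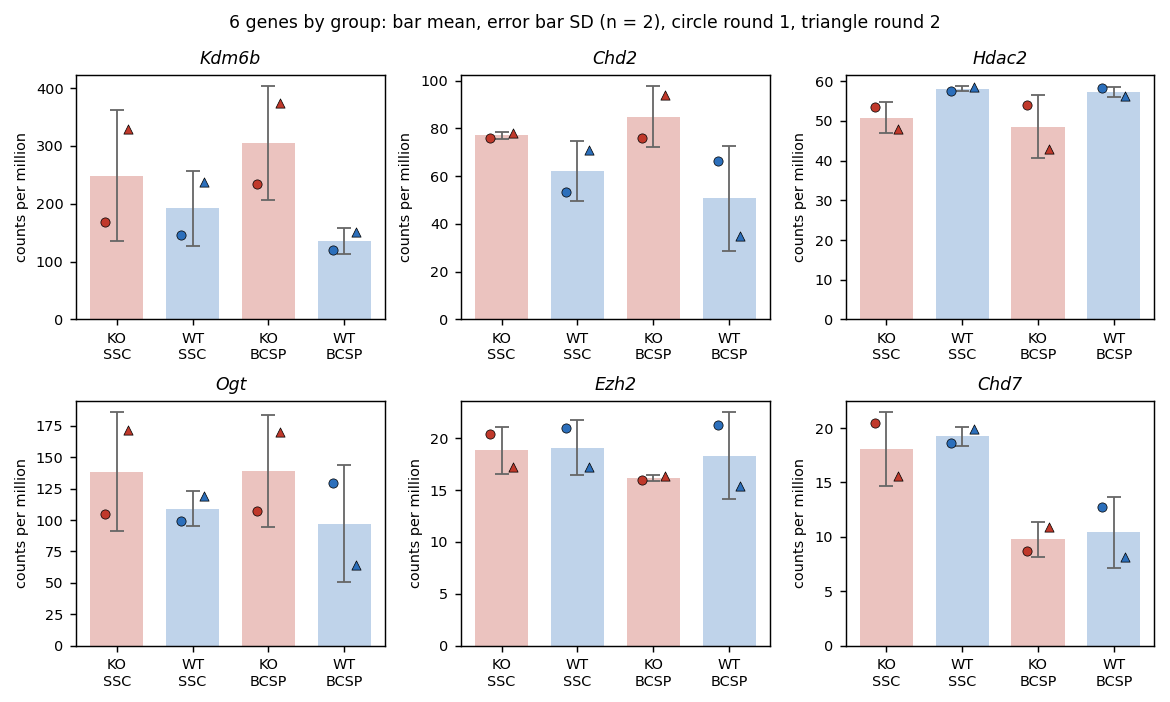
CPM of 6 genes in the 4 groups, with bars for the mean, error bars for the SD over 2 libraries, circles for round 1 and triangles for round 2. Kdm6b is higher in round 2 in every group, the KO libraries of Chd2 lie above and those of Hdac2 below all WT libraries, and Chd7 is higher in SSC (15.6 to 20.4) than in BCSP (8.13 to 12.7).

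Of the SWI/SNF remodeller, Smarca4, its ATPase motor, had 77.9 and 69.97 CPM in KO SSC, against 85.3 and 89.5 CPM in WT SSC, and 69.5 and 65.8 CPM in KO BCSP, against 72.5 and 72.7 CPM in WT BCSP. Both KO libraries lay below both WT libraries in each cell type. The log2 fold change was -0.24 ± 0.21 in SSC (edgeR adjusted p = 1) and -0.10 ± 0.21 in BCSP (edgeR adjusted p = 0.916), where it was -0.058 without both BCSP libraries of round 2. The DNA-binding subunits Arid1a, Arid1b and Arid2 were each lowest in WT BCSP library 2. Arid1a ranged over 32.1 to 61.1 CPM, with a log2 fold change in BCSP of 0.44 ± 0.26, or 0.12 without that library and 0.045 without both BCSP libraries of round 2. Arid1b ranged over 35.2 to 56.9 CPM, with 0.44 ± 0.22, or 0.28 and 0.21 under these omissions. Arid2 ranged over 19.996 to 41.7 CPM, with 0.38 ± 0.30, or -0.028 and -0.16 likewise.

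In the acetylation group, both acetyltransferases lay above 0 over both cell types and Hdac1, Hdac2 and Hdac3 below it. Ep300, an acetyltransferase of enhancers, ranged over 20.3 to 50.9 CPM at 0.42 ± 0.21, and in BCSP at 0.65 ± 0.30, or 0.24 without WT BCSP library 2 and 0.12 without both BCSP libraries of round 2. Its paralog Crebbp ranged over 39.7 to 92.4 CPM at 0.42 ± 0.20, and in BCSP at 0.68 ± 0.28, or 0.36 and 0.23 under the same omissions. Sirt1, an NAD-dependent deacetylase, ranged over 15.5 to 28.3 CPM at 0.26 ± 0.19. With an exon-length offset, the values over both cell types were 0.28 for Ep300, 0.28 for Crebbp and 0.27 for Sirt1. They were -0.20 for Hdac1, -0.17 for Hdac2 and -0.20 for Hdac3. The part of exon length in this split was not tested.

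Hdac1 and Hdac2 are the paired deacetylases of the SIN3A and NuRD complexes. Hdac1 had 54.04 and 47.2 CPM in KO SSC, against 61.4 and 52.7 CPM in WT SSC, and 52.6 and 43.4 CPM in KO BCSP, against 61.3 and 68.98 CPM in WT BCSP, and its log2 fold change over both cell types was -0.31 ± 0.14 (edgeR adjusted p = 0.628). KO was below WT in 4 of 4 within-round pairs, while the groups overlapped in SSC and did not in BCSP (-0.44 ± 0.22, edgeR adjusted p = 0.686). The value in BCSP was -0.35 without WT BCSP library 2 and -0.22 without both BCSP libraries of round 2. Hdac2 had 53.6 and 48.01 CPM in KO SSC, against 57.6 and 58.6 CPM in WT SSC, and 54.1 and 43.1 CPM in KO BCSP, against 58.2 and 56.4 CPM in WT BCSP (chr10:36974544-37001889, plus strand, mm10), with -0.22 ± 0.14 over both cell types (edgeR adjusted p = 0.674). Its 4 KO libraries ranged over 43.1 to 54.1 CPM, below the 56.4 to 58.6 CPM of the 4 WT libraries, and its value lay between -0.28 and -0.14 under 17 alternatives. In BCSP alone it was -0.24 ± 0.21, or -0.10 without both BCSP libraries of round 2.

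Hdac3, the deacetylase of the NCoR and SMRT corepressors, had 37.5 and 31.9 CPM in KO SSC, against 40.7 and 32.8 CPM in WT SSC, and 36.3 and 30.4 CPM in KO BCSP, against 34.1 and 58.5 CPM in WT BCSP. WT BCSP library 2 was highest, and the log2 fold change in BCSP was -0.47 ± 0.27 with it, -0.031 without it and 0.093 without both BCSP libraries of round 2. Of 16 other acetylation genes, whose median over both cell types was 0.13, Hdac7, a class IIa deacetylase, had the lowest p of all 115 other genes in SSC, at 0.63 ± 0.34 (edgeR adjusted p = 1).

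The described binding partners of TET1 differed in their spread. Sin3a, the scaffold of its corepressor complex, had 22.9 and 24.2 CPM in KO SSC, against 20.2 and 27.4 CPM in WT SSC, and 24.2 and 25.7 CPM in KO BCSP, against 24.3 and 22.8 CPM in WT BCSP. Its log2 fold change over both cell types was 0.034 ± 0.15, and the genotypes overlapped in both. Ogt, which attaches a sugar to nuclear proteins and binds TET enzymes, had 105 and 172 CPM in KO SSC, against 99.1 and 119 CPM in WT SSC, and 108 and 170.5 CPM in KO BCSP, against 129.8 and 63.97 CPM in WT BCSP (chrX:101640060-101684351, plus strand, mm10). Both KO libraries of round 2 were high and WT BCSP library 2 was low, and the groups overlapped in both cell types. Its log2 fold change was 0.35 ± 0.35 in SSC (edgeR adjusted p = 1), 0.52 ± 0.35 in BCSP (edgeR adjusted p = 0.694), and in BCSP 0.10 without WT BCSP library 2 and -0.27 without both BCSP libraries of round 2. In SSC it was -0.0705 without KO SSC library 2. Oga, the enzyme that removes the sugar that OGT attaches, had the lowest p of the 115 other genes between rounds, at -0.47 ± 0.14 for round 2 over round 1 (edgeR adjusted p = 0.113).

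Ogt and Suv39h1 lie on the X chromosome, and the libraries differed in sex-linked transcripts. Xist, the RNA of the inactive X chromosome, had 74.9 and 291 CPM in KO SSC, against 441 and 560.4 CPM in WT SSC, and 231 and 275 CPM in KO BCSP, against 621 and 277 CPM in WT BCSP. Ddx3y, on the Y chromosome, had 68.2 and 81.7 CPM in KO SSC, against 35.6 and 39.7 CPM in WT SSC, and 62.1 and 92.2 CPM in KO BCSP, against 37.7 and 23.2 CPM in WT BCSP, with a log2 fold change of 1.17 ± 0.19 over both cell types. KO libraries thus held more of a male transcript, and every library held both kinds. Of further X-linked genes of these complexes, the demethylase Kdm6a stood at -0.25 ± 0.17, Kdm5c at -0.19 ± 0.13 and Phf8 at 0.026 ± 0.15 over both cell types. The part of sex-linked differences in the values of Ogt and Suv39h1 was not tested.

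Counting genes whose libraries did not overlap gave a share below that of all tested genes in SSC and above it in BCSP. In SSC, 5 genes were above (Ezh1, Kmt2b, Ehmt1, Kdm4a and Chd2) and 2 below (Smarca4 and Hdac2), or 17.9% of 39, where 27.6% of all tested genes did not overlap. In BCSP, 15 were above and 3 below (Smarca4, Hdac1 and Hdac2), or 46.2%, where 33.3% of all genes did not overlap. Of the 115 other genes of the same complexes, 13.9% did not overlap in SSC and 42.6% in BCSP. Both departures were thus shared with those genes. Kdm7a, a demethylase outside the 39, had the lowest p of the 115 other genes in BCSP, at 0.88 ± 0.29 (edgeR adjusted p = 0.686), and for the difference between cell types, at -0.76 ± 0.40 for SSC minus BCSP (edgeR adjusted p = 1).

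The fold changes of the 39 genes ran with the length of their exons. These are long genes, with a median exon length of 8705 bases (3445 for Hdac1 to 20291 for Kmt2c), against 5030.5 in tested genes of 10 CPM or more. Across the 39 genes, the Spearman coefficient of log2 fold change and exon length was 0.28 in SSC and 0.597 in BCSP. Across the 7658 genes of 10 CPM or more it was 0.309 and 0.545. These are descriptions across genes of the same 8 libraries, which are not independent replicates. Among genes over 8 kb, the median log2 fold change in BCSP was 0.44 for 23 of the 39 genes and 0.16 for all 1791 such genes. Among genes of 2 to 4 kb it was -0.27 for Hdac1 and Eed and -0.28 for all 2053. With an offset that removed the relation to exon length within each library, the medians of the 39 genes were 0.086 over both cell types, -0.014 in SSC and 0.11 in BCSP.

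**Figure D5:**
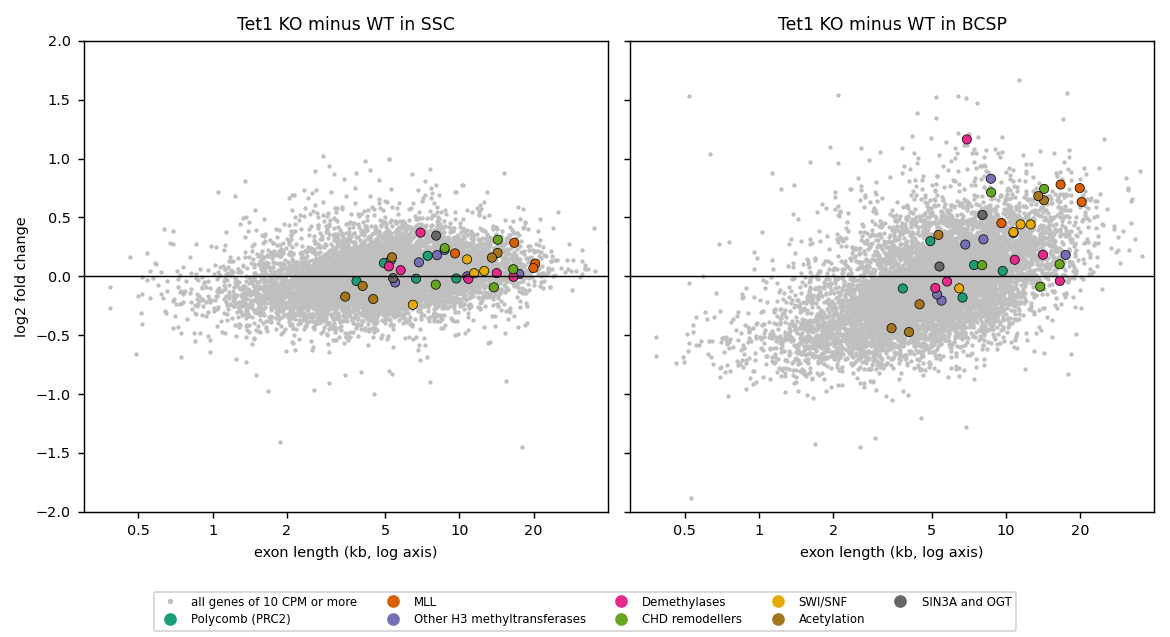
Log2 fold change of Tet1 KO over WT against exon length in kb (log axis) in SSC (left) and BCSP (right), for 7658 genes of 10 CPM or more in grey and the 39 genes coloured by complex; 11 and 9 grey genes lie outside the axes. In BCSP the short deacetylase genes Hdac1 and Hdac3 lie below 0 and the long MLL genes above it. Not all long genes lie above 0: Kdm5b is at -0.039 and Chd7 at -0.088.

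Between the rounds, which the design balances over the 4 groups, edgeR called 0 of 39 genes, where it called 2.15% of all tested genes (476). Limma-voom called 0 of 39, and DESeq2 called Kdm6b (adjusted p = 0.0113). The edgeR share is no background for the DESeq2 call, whose own share over all genes is not given here. At an unadjusted p under 0.05, Kdm6b and Dot1l were higher and Suv39h1 lower in round 2, beside 13.3% of all genes. Eed and Suv39h1 had all round 2 libraries below all round 1 libraries (5.13% of 39), beside 7.62% of all genes. The median for round 2 over round 1 was 0.026, with 23 of 39 above 0. Leaving out WT BCSP library 2 changed this count: edgeR then called 11 of 39, with 10 higher in round 2 (Kmt2a, Kmt2c, Kmt2d, Dot1l, Kdm6b, Chd1, Ep300, Crebbp, Sirt1 and Ogt) and Suv39h1 lower. In that fit 4072 of all tested genes were called, and the gene-wise spread had shrunk fully to the common trend. Without both BCSP libraries of round 2, where the spread had shrunk likewise, the median was 0.15, with 27 of 39 genes above 0. Kmt2a then stood at 0.70 and 0.66 for round 2 over round 1 under these omissions, and Kdm6b at 0.85 and 0.84.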

How the data were processed

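RNA sequencing counts of 8 libraries were used, 2 for each of Tet1 KO SSC, WT SSC, Tet1 KO BCSP and WT BCSP, grouped by the sample titles. The deposited table holds whole-number counts per gene, not normalized, and no column was left unmapped. Build mm10 and the programs STAR, featureCounts and DESeq2 are named, without versions, in the submitters' processing notes, while the table's own name points to another counting program. The annotation release and strand setting are not given in the sources used here. Column names spelled SCC and BCP were read as SSC and BCSP. Reads were 150 bases long and paired, per the labels.

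In R 4.3.3, edgeR 4.0.16 was run on the counts with TMM scaling, filterByExpr (minimum count 10, minimum total 15; 22153 genes kept, holding 99.9854% of counts), and the robust quasi-likelihood test with Benjamini-Hochberg adjustment over all genes tested at 0.05. KO over WT within SSC or BCSP and the difference between them came from 1 mean per group in all 8 libraries, the comparisons over both cell types and between cell types from a model of cell type and genotype, and rounds from the same model with round added. Log2 CPM used a prior count of 2. Means of CPM carry SDs and fold changes carry standard errors. For edgeR these were derived from the test, as the absolute log2 fold change over the square root of its F statistic. Exon lengths and positions came from GENCODE M21 by Ensembl ID. The script was tested on simulated data. Alternatives were other scalings, no filter, DESeq2 1.42.0, limma-voom (limma 3.58.1), a round block, an exon-length offset, and each library left out, plus 1 omission chosen after seeing the data.

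Genes named with values in every library are Tet1, Sin3a, Ogt, Ezh2, Hdac1, Hdac2 and the 3 genes of lowest p on each side over both cell types, in SSC, in BCSP and between cell types; Kmt2a, Kmt2c and Kmt2d were added after their values were seen. Members and lists were chosen with earlier results of these data known. Library totals were 104782544 to 168004119, and counting intervals would cover counting error only. Libraries of a group were distinct (chi-square of their counts over degrees of freedom, 127 to 310). Marker sums not given beside a result were 252410 to 340120 CPM for 5 cartilage genes, 38.9 to 97.2 for 4 osteoblast genes, 0.314 to 2.56 for 5 endothelial genes (Emcn untested for low counts), 6.98 to 25.1 for 4 muscle genes and 66.8 to 136 for Itgav and Cd200.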

Additional observations from a re-analysis of the deposited data

Results flagged for a closer look

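Over 40 genes (the 39 and Tet1) the 4 libraries of each genotype and of each cell type were searched for a library far from the other 3. Chance flags about 1 in 20 such groups, and 1 of 40 was found in KO, 1 of 40 in WT, 1 of 40 in SSC and 4 of 40 in BCSP. Among the KO libraries, Chd2 had its far value in KO BCSP library 2, at 93.93 CPM. Among the WT libraries, Kdm5b had its far value in WT SSC library 1, at 68.39 CPM. In SSC, Suz12 stood far from the rest in KO SSC library 1, at 28.56 CPM. In BCSP, WT BCSP library 2 was far from the rest for Suz12, at 13.74 CPM, and for Chd8, at 45.63 CPM. Also in BCSP, WT BCSP library 1 was far from the rest for Ezh2, at 21.26 CPM, and for Tet1, at 21.62 CPM.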

How the results depend on the processing

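None of the 39 genes was called in the comparisons of the report, so no call could be lost, and the medians in BCSP and in SSC changed sign when libraries were left out, and that in SSC also with an exon-length offset (-0.014, or -0.0088 with the round as a replicate block too). Of 200 recomputed summary values, 187 counted as the same and 13 moved. A median counted as the same if it shifted by less than 0.176 log2 units. That limit was the SD of the 39 genes' median deviation between the 2 libraries of a group. It exceeded the main median in SSC (0.060), whose change of sign without WT SSC library 1 counted as the same. Counts of genes called that stayed at 0 did too. Without a filter on low counts edgeR called 1 of the 39 genes over both cell types and 1 in BCSP (Kdm6b), 1 between cell types (Chd7) and 1 between rounds (Kdm6b). DESeq2 called 1 between cell types and 1 between rounds, the length offset 1 between rounds, and the length offset with the round as a replicate block 1 between cell types. All genes called also rose in some settings, up to 234 over both cell types, 38 in BCSP and 66 between cell types. The share over all genes in each setting is not given here, so these calls cannot be told from a general rise. With each library left out in turn, genes called between rounds numbered 0 to 11 and the median in BCSP was 0.036 to 0.45 and the median in SSC -0.0445 to 0.20. Without both BCSP libraries of round 2, an omission chosen after seeing the data, 6 were called between rounds, the median in BCSP was -0.0069 and the median difference of the KO effect between cell types was 0.073. The cause was not tested.

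With the round as a replicate block, 0 of the 39 genes were called over both cell types, in SSC, in BCSP, for the difference and between cell types. Round numbers were treated as shared numbers only, because deviations of same-numbered libraries correlated at 0.0234 to 0.24 and not every pair passed 0.1. Pairs of groups that held WT BCSP gave 0.0234 to 0.109, and pairs without it 0.215 to 0.24. The main models for genotype and cell type left the round out, although edgeR called 476 genes between rounds. All genes called ranged over 1 to 234 over both cell types (3 in the report), 1 to 10 in SSC (1), 1 to 38 in BCSP (1), 0 to 2 for the difference (0), 1 to 66 between cell types (1) and 208 to 4072 between rounds (476). The lowest count of any of the 39 genes was 733, and the effect of depth on the calls was not tested.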
